A study of Homo sapiens with 4 samples.

Results

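The data concern 10 genes known as transcriptional targets of Wnt signalling: AXIN2, BMP4, CCND1, CD44, DKK1, EPHB2, PROX1, RNF43, TCF7 and TDGF1. Every transcript listed under these gene names was taken, which gave 12 of 9880 listed transcripts for the HT-29 line and 12 of 11943 for CaCo-2. Together these were 21 distinct transcripts. HT-29 and CaCo-2 are human colon adenocarcinoma lines, both untreated here. For each line, 1 library was made from RNA that came down with beta-catenin from a nuclear lysate (RNA immunoprecipitation, RIP) and 1 from input RNA without antibody, 4 libraries in all. A mock precipitation was not analysed here, and a level in these bulk libraries cannot separate how many cells hold an RNA from how much each cell holds. There was 1 library per group, so no value below has an error between replicates and no fold was tested.

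In the canonical Wnt pathway, beta-catenin escapes degradation, enters the nucleus and binds T-cell factor proteins on DNA, where it acts as a co-activator of their target genes. The intestinal crypt depends on this pathway, and most colon cancers keep it switched on through changes in the machinery that degrades beta-catenin. Its targets include negative feedback regulators (AXIN2, RNF43, DKK1), transcription factors (TCF7, PROX1), secreted or surface signalling proteins (BMP4, TDGF1, EPHB2), an adhesion receptor (CD44) and a cell cycle regulator (CCND1). The values here measure RNA in a beta-catenin precipitate and not transcription of these genes.

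Levels are in FPKM, fragment counts corrected for transcript length and for library size. The tables list only transcripts at least 1.5-fold higher in the RIP than in input and above a minimum RIP level, which was 1.31 FPKM for HT-29 and 0.842 for CaCo-2. That every transcript below was higher in the RIP is therefore a property of the tables. A gene or transcript that is not listed was not analysed here. Of 9 colon epithelial marker genes, HT-29 had 6 listed and CaCo-2 had 4, with CDH1, KRT8, KRT18 and KRT19 in both. Of 9 markers of immune cells, fibroblasts and endothelium, HT-29 had 0 listed and CaCo-2 had 1, CD68, with 1.47 FPKM in the RIP and 0.954 in the input.

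Promoter windows give the DNA context of these genes, since T-cell factors bind near target promoters. RefSeq windows on GRCh38.p14, from 250 bases before to 50 bases after a gene's start, were given for 6 of the 10 genes and numbered 11. They covered BMP4, CD44, DKK1, EPHB2, RNF43 and TCF7. Each was searched on both strands for ATCAAAG or TTCAAAG, letters of the T-cell factor motif. A match was found in 1 of the 11 windows, that of DKK1, against 6.86% of all 35116 windows of 300 bases. Such a match is a description of the letters and not a binding site. The DKK1 window is shown for its match, and the upstream RNF43 window because an RNF43 transcript had the highest single RIP level among the 10 genes in both lines. Capitals mark the match, which lies on the reverse strand and starts 95 bases before the gene's start.
DKK1, chr10:52314031-52314330, plus strand: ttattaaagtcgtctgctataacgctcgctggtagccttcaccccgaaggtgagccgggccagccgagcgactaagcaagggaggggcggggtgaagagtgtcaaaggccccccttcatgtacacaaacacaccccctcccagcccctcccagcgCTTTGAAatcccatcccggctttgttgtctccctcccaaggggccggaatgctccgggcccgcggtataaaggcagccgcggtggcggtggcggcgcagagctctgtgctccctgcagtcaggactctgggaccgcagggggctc
RNF43, chr17:58417485-58417784, minus strand: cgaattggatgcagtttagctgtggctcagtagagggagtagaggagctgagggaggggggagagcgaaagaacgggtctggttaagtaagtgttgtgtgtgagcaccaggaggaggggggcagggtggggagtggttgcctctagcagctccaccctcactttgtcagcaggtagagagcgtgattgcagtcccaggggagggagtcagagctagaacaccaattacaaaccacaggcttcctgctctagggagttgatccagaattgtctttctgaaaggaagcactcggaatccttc

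In HT-29, transcripts of 8 of the 10 genes were listed: AXIN2, BMP4, CCND1, CD44, DKK1, RNF43, TCF7 and TDGF1. Their RIP levels ran from 1.37 to 14.2 FPKM with a median of 4.10, and their input levels from 0 to 6.88 with a median of 0.812. In CaCo-2, transcripts of 7 genes were listed: AXIN2, BMP4, CCND1, EPHB2, PROX1, RNF43 and TCF7. There RIP levels ran from 1.05 to 8.77 FPKM with a median of 1.88, and input levels from 0 to 4.30 with a median of 0.727. Over all listed transcripts, the RIP median was 2.45 FPKM (HT-29) and 1.55 FPKM (CaCo-2). The tables of the lines were made separately, so levels set across lines are descriptions.

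**Figure D1:**
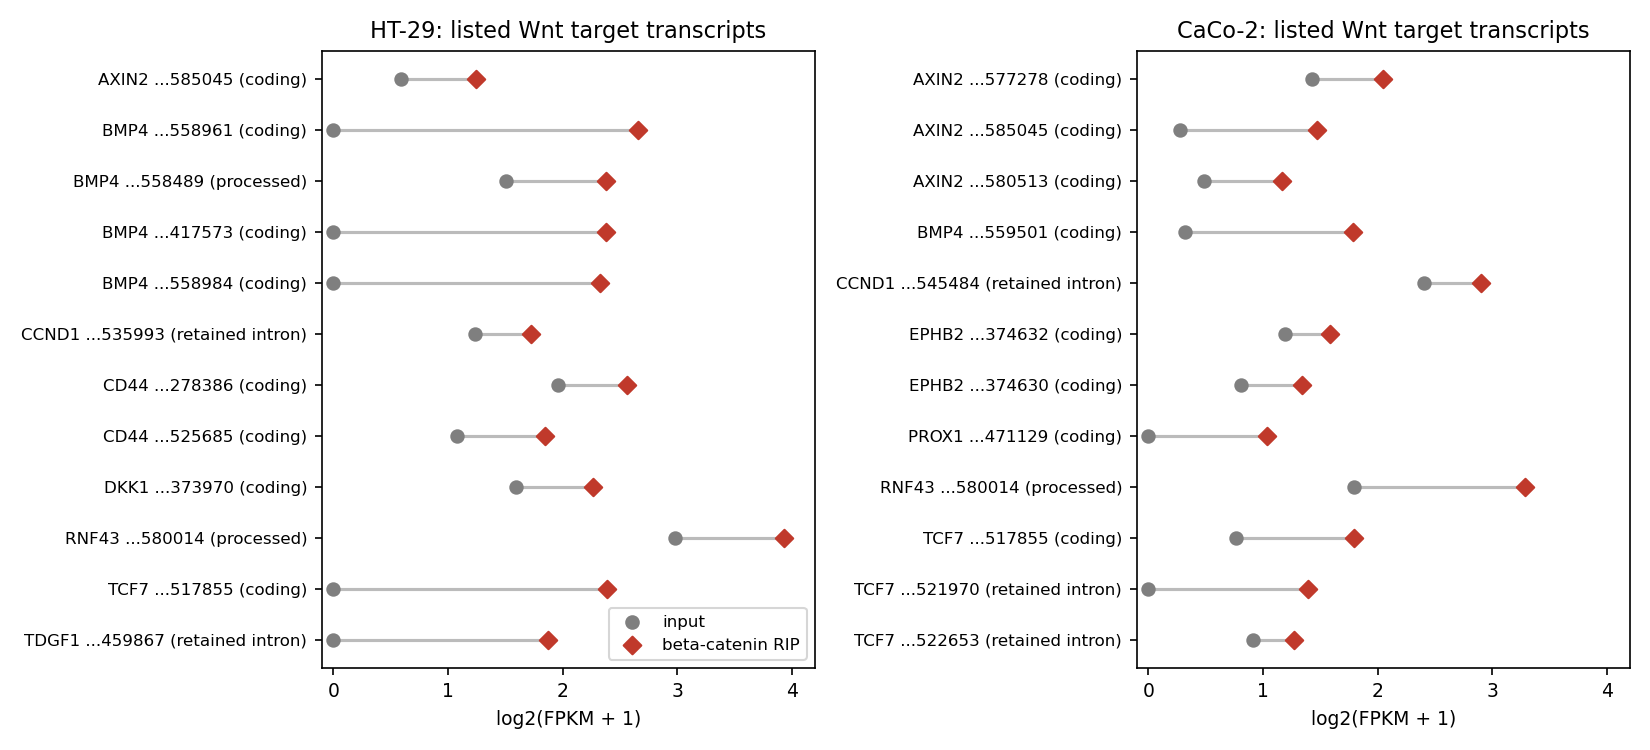
Level of each listed Wnt target transcript as log2(FPKM + 1) in input (grey circles) and beta-catenin RIP (red diamonds), 1 library each, for HT-29 (left) and CaCo-2 (right). Labels give the gene, the last digits of the Ensembl transcript and its class. RNF43 has the rightmost RIP value in both lines, and the longest lines start from an input at or near 0, as for BMP4 in HT-29.

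To compare libraries, 1 FPKM was added to both levels and the log2 of RIP over input was taken; a transcript counted as high at 2-fold or more. All 12 transcripts of each line had at least 1 FPKM in the RIP and were kept. In HT-29, 5 of the 12 transcripts reached 2-fold, where 56% of all listed transcripts did. In CaCo-2, 6 of the 12 reached 2-fold, against 40.8% of the 10116 listed transcripts with at least 1 FPKM in a library. The 12 had a median log2 ratio of 0.91 in HT-29, beside 1.14 for all listed. In CaCo-2 it was 0.86, beside 0.82. The share and the median of the Wnt targets lie below those of the HT-29 table and slightly above those of the CaCo-2 table. Under some other settings this order turned for 1 measure but not for the other. The median of coding transcripts in HT-29 was 1.54, above the 1.07 of that table, but 4 of 8 reached 2-fold, below 53.2%. None of the 8 coding Wnt target ratios of HT-29 lay between 0.76 and 2.32, so their median of 1.54 falls in a gap. The ratios above the gap were of BMP4 and TCF7, with inputs at or near 0. With a pseudocount of 0.1 FPKM, 9 of 12 reached 2-fold in HT-29, beside 74.8%, and the median was 1.21, below 1.84. In CaCo-2, 7 of 12 did, below the 67.2% of its table, but the median was 1.56, above 1.43. Where both libraries of CaCo-2 held at least 1 FPKM, the median was 0.56, below 0.61, but 1 of 4 reached 2-fold, above 13.1%.

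Most transcripts at 2-fold had little or no input, as had most of the tables: input was under 1 FPKM for 65.3% of all HT-29 transcripts and 78.5% of those of CaCo-2, and listed at 0 for 31.8% and 29.0%. In HT-29, the 5 at 2-fold were 3 BMP4 transcripts that overlap one another, 1 of TCF7 and 1 of TDGF1. Input was listed at 0 for 4 of them and at 0.000810 FPKM for the fifth. In CaCo-2, 5 of the 6 at 2-fold had an input under 1 FPKM, listed at 0 for 2 of them. An input of 0 passes 2-fold by construction wherever the RIP level is at least 1 FPKM. That covers all listed HT-29 transcripts and all CaCo-2 transcripts kept by the filter. Where both libraries held at least 1 FPKM, 0 of 6 HT-29 transcripts reached 2-fold, while 25.2% of the table did. Under that filter 1 of 4 CaCo-2 transcripts did, that of RNF43, beside 13.1% of the table. Without a pseudocount, over transcripts with input above 0, HT-29 had 5 of 8 at 2-fold, beside 66.5% of its table, and CaCo-2 had 6 of 10, beside 61%.

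**Figure D2:**
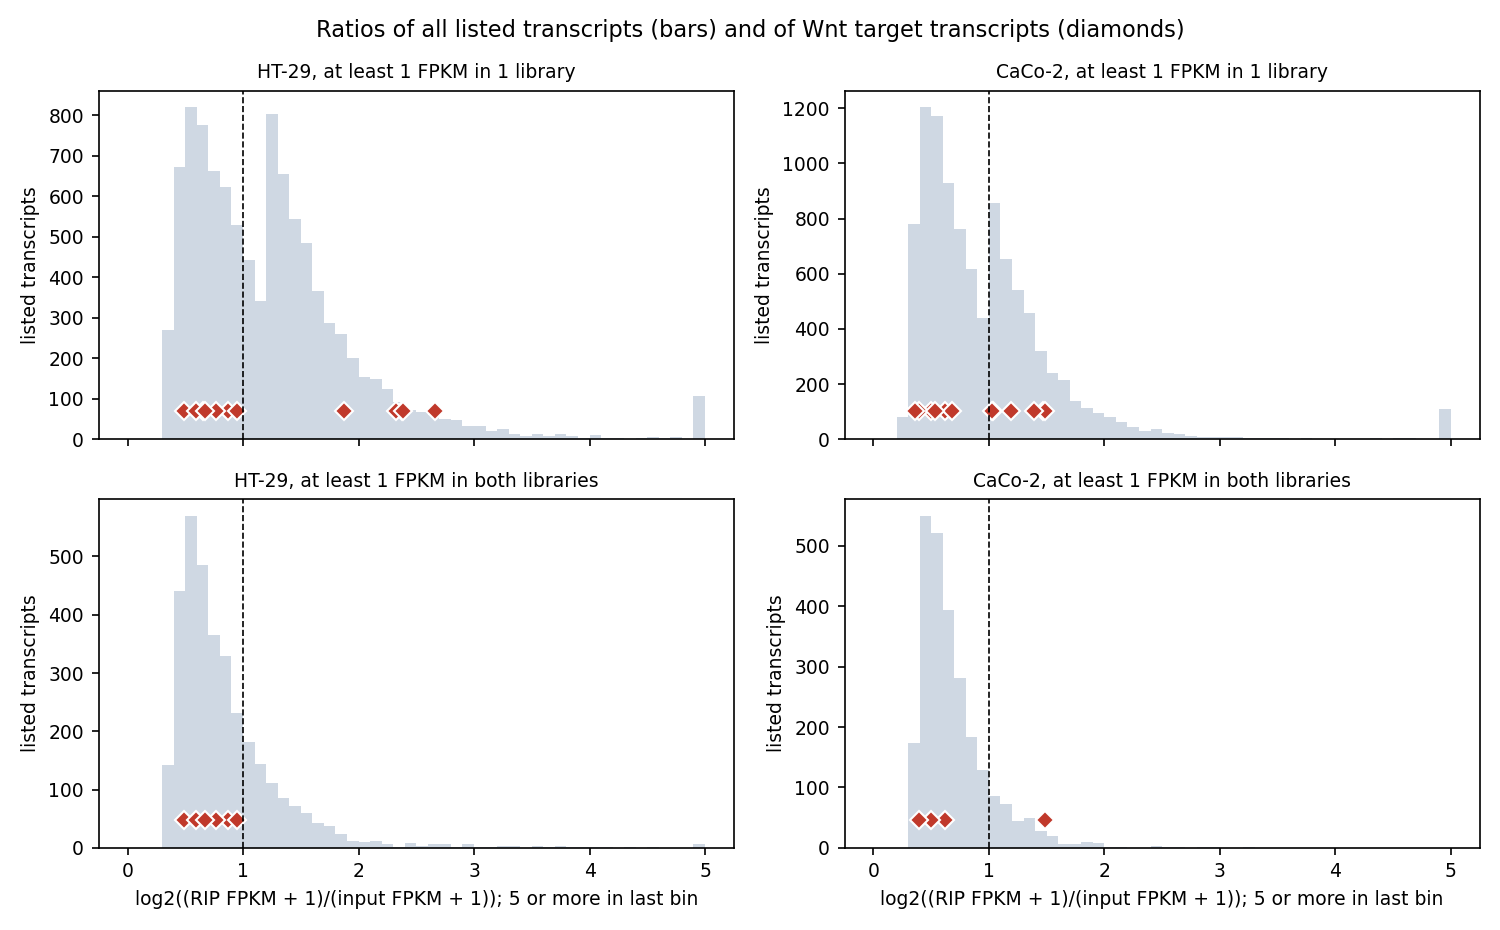
Number of listed transcripts (bars, vertical axis) by log2((RIP FPKM + 1)/(input FPKM + 1)) (horizontal axis) in HT-29 (left) and CaCo-2 (right), with red diamonds at the Wnt target transcripts and a dashed line at 2-fold. With at least 1 FPKM in both libraries (lower row), only 6 diamonds are left in HT-29, all below 2-fold, and 4 in CaCo-2, with RNF43 alone above it.

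Of the authors' own tests, none of the 24 entries reached a q-value of 0.05. In the authors' deposited table, the HT-29 entries had q from 0.283 to 0.9998 and the CaCo-2 entries from 0.543 to 1, while 3.08% and 2.24% of all listed transcripts had q at or below 0.05. An unadjusted p below 0.05 was given in the authors' deposited table for 1 of the 12 entries in HT-29, a BMP4 transcript, where 17% of the table had one. In CaCo-2 it was given for 0 of 12, where 14.3% of the table had one.

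Among the feedback regulators, RNF43 encodes a ubiquitin ligase that removes Wnt receptors from the cell surface. It was listed in both lines by the same short processed transcript without a coding sequence annotation, ENST00000580014 (hg19 chromosome 17, 56494374 to 56494956, minus strand), which spans 583 nucleotides. The HT-29 RIP held 14.2 FPKM of it and the HT-29 input 6.88. The CaCo-2 RIP held 8.77 FPKM and the CaCo-2 input 2.48. This is the highest RIP level of a single transcript among the 10 genes in each line, at rank 574 of 9880 for HT-29 and rank 368 of 11943 for CaCo-2. The log2 ratio was 0.95 in HT-29, just below 2-fold, and 1.49 in CaCo-2. Without the pseudocount the RIP was 2.07-fold above input in HT-29 and 3.54-fold in CaCo-2. The authors' deposited table gives q of 0.917 for HT-29 and 0.841 for CaCo-2.

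The RNF43 transcript starts at the 5′ edge of its Cufflinks locus, the stretch of overlapping transcripts that were quantified together. That locus spans 116365 nucleotides, and it also held listed transcripts of SUPT4H1 (both lines) and of BZRAP1-AS1 (HT-29). Longer RNF43 transcripts were not analysed here, so these values describe 583 nucleotides at the start of the gene. The transcripts nearest to RNF43 over the 4 libraries, by Euclidean distance of log2(FPKM + 1) among the 1927 others listed in both lines, were those of C1orf43, CD63 and CLPTM1L. Their distances were 0.26, 0.57 and 0.63 log2 units, where the median distance of all was 3.84. C1orf43 had 12.7 FPKM in the RIP of HT-29 (input 7.33) and 8.16 in that of CaCo-2 (input 2.91).

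AXIN2, a scaffold of the complex that marks beta-catenin for degradation and a widely used reporter of Wnt activity, had 1 listed transcript in HT-29 and 3 listed transcripts in CaCo-2. The protein-coding transcript ENST00000585045 (hg19 chromosome 17, 63554164 to 63556414, minus strand) was common to both. The HT-29 RIP held 1.37 FPKM of it and the input 0.509, a log2 ratio of 0.65. The CaCo-2 RIP held 1.77 and its input 0.213, which gives 1.19. Without the pseudocount the folds were 2.69 and 8.29, both past 2-fold. Its HT-29 level is near the minimum that the table lists, at rank 9443 of 9880.

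In CaCo-2 the most abundant AXIN2 entry was ENST00000577278 (63553924 to 63556675), with 3.13 FPKM in the RIP and 1.70 in the input. ENST00000580513 (63554162 to 63557309) had 1.25 in the RIP and 0.399 in the input. Their log2 ratios were 0.62 and 0.68, and their folds without the pseudocount 1.85 and 3.12, the second past 2-fold. The 3 overlap one another over at least 2251 nucleotides of the genome, introns included. Their single values may therefore depend on how Cufflinks divided fragments between them. Summed over the listed entries, AXIN2 reached 6.15 FPKM in the CaCo-2 RIP and 2.31 in its input. The summed RIP level was 2.66-fold above input in CaCo-2, beside 2.69-fold for the lone HT-29 entry. The q of the 4 AXIN2 entries ran from 0.868 to 0.927 in the authors' deposited table.

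DKK1 encodes a secreted inhibitor that binds the LRP co-receptors of Wnt. It was listed in HT-29 alone, by the protein-coding transcript ENST00000373970 (hg19 chromosome 10, 54074056 to 54077417), which starts at the 5′ edge of its locus and covers 89.7% of it. The RIP held 3.79 FPKM and the input 2.02, a log2 ratio of 0.67 and a fold of 1.88. DKK1 is thus measured over nearly its whole locus and was below 2-fold. The q was 0.519 in the authors' deposited table.

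Of the transcription factors, TCF7 encodes a T-cell factor that binds beta-catenin and is itself a Wnt target. The protein-coding transcript ENST00000517855 (hg19 chromosome 5, 133477876 to 133482398) was listed in both lines. The HT-29 RIP held 4.23 FPKM of it, with the input listed at 0. The CaCo-2 RIP held 2.48 FPKM and its input 0.703, a log2 ratio of 1.03. It was the 1 of 3 Wnt target transcripts listed in both lines that reached 2-fold in both, where 30% of the 1784 transcripts compared did.

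In CaCo-2, a pair of TCF7 transcripts with a retained intron was also listed. ENST00000521970 (133473556 to 133474943) had 1.63 FPKM in the RIP, with the input listed at 0. ENST00000522653 (133451043 to 133483674) had 1.42 in the RIP and 0.885 in the input, a log2 ratio of 0.36, the lowest of the 24 entries. This long transcript spans both others, and the same gene thus gave low and high ratios in one line. The q of the CaCo-2 entries ran from 0.815 to 1 in the authors' deposited table, and that of HT-29 was 0.607.

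PROX1, a homeobox transcription factor described in colon tumours with active Wnt signalling, was listed in CaCo-2 alone. Its protein-coding transcript ENST00000471129 (hg19 chromosome 1, 214156524 to 214170568) had 1.05 FPKM in the RIP and 0 in the input. The authors' deposited table gives q of 0.543. This was the lowest RIP level among the 24 entries, and it passed 2-fold, at a log2 ratio of 1.03, from an input of 0.

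Among signalling proteins, BMP4 encodes a secreted ligand of the bone morphogenetic protein pathway. It had the most entries, 4 from HT-29 and 1 from CaCo-2, all on the minus strand of hg19 chromosome 14. In HT-29, the protein-coding transcripts ENST00000558961 (54417340 to 54418865) and ENST00000417573 (54416457 to 54421270) had 5.32 and 4.19 FPKM in the RIP, with both inputs listed at 0. A further protein-coding transcript, ENST00000558984 (54416459 to 54420173), had 4.01 in the RIP and 0.000810 in the input. These had the high log2 ratios 2.66, 2.37 and 2.32. They overlap one another over at least 1526 nucleotides of the genome, introns included. Their single values, the inputs at or near 0 among them, may therefore depend on how Cufflinks divided fragments between them, which was not tested. Of the authors' BMP4 q-values, whose range is given below, the highest belongs to ENST00000558984.

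The other BMP4 entry of HT-29, the processed transcript ENST00000558489 (54422184 to 54423366), overlaps none of the coding entries. Its RIP level was 4.21 FPKM and its input level 1.85, a log2 ratio of 0.87 and, without the pseudocount, a fold of 2.28. In the HT-29 input, this non-coding entry upstream of the coding ones was thus the only listed BMP4 transcript away from 0, while the 4 RIP levels lay close together between 4.01 and 5.32. In CaCo-2, another protein-coding transcript was listed, ENST00000559501 (54416973 to 54420147), with 2.46 FPKM in the RIP and 0.247 in the input. Summed over listed HT-29 entries, BMP4 reached 17.7 FPKM in the RIP and 1.85 in the input, a 9.60-fold difference. The lone CaCo-2 entry, a different transcript, differed 9.94-fold. Only transcripts at least 1.5-fold higher in the RIP enter these values, so they are not folds of the whole gene. BMP4 q-values ran from 0.283 to 0.9998 in the authors' deposited table.

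TDGF1, which encodes the Cripto co-receptor of Nodal signalling, was listed in HT-29 alone by a retained-intron transcript, ENST00000459867 (hg19 chromosome 3, 46620632 to 46621269). The RIP held 2.67 FPKM of it and the input 0. The authors' deposited table gives q of 0.634. The transcript spans 638 nucleotides, 0.574% of its Cufflinks locus of 111121 nucleotides. That share is of the locus and not of the TDGF1 gene. Other TDGF1 transcripts were not analysed here.

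EPHB2, a receptor tyrosine kinase that helps position cells along the crypt, was listed in CaCo-2 alone. The protein-coding transcripts ENST00000374632 (hg19 chromosome 1, 23037463 to 23240763) and ENST00000374630 (23037458 to 23240236) each span over 99% of their locus. The first had 1.995 FPKM in the RIP and 1.28 in the input. The second had 1.53 in the RIP and 0.752 in the input. Both were below 2-fold by the log2 ratio, at 0.39 and 0.53. Without the pseudocount the folds were 1.56 and 2.04, so the second then passed. The authors' deposited table gives them q of 0.748 and 0.654.

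CD44, a hyaluronan receptor and adhesion protein with many splice forms, was listed in HT-29 alone, by a pair of protein-coding transcripts on hg19 chromosome 11. ENST00000278386 (35160833 to 35250880) had 4.89 FPKM in the RIP and 2.90 in the input. ENST00000525685 (35208409 to 35231612), which lies wholly within it, had 2.59 in the RIP and 1.12 in the input. The log2 ratios were 0.60 and 0.76, both below 2-fold. Without the pseudocount the folds were 1.69 and 2.33, so the shorter one then passed. An antisense transcript named RP1-68D18.4 overlaps the longer one and had 1.99 FPKM in the RIP and 0.963 in the input. The strandedness of the libraries is not given in the sources used here, so reads of the antisense RNA and of CD44 may not have been told apart. The q of both CD44 entries was 0.9998 in the authors' deposited table.

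CCND1 encodes cyclin D1, the partner of cyclin-dependent kinases that drives entry into S phase. It was listed in both lines, each time by a retained-intron transcript, and the transcripts do not overlap. In HT-29, ENST00000535993 (hg19 chromosome 11, 69455999 to 69458085), near the 5′ edge of the locus, had 2.30 FPKM in the RIP and 1.35 in the input. In CaCo-2, ENST00000545484 (69458480 to 69462911) had 6.48 in the RIP and 4.30 in the input. The log2 ratios were near each other, 0.49 (HT-29) and 0.50 (CaCo-2), and the CaCo-2 fold of 1.51 lies just above the minimum that the table lists. The authors' deposited table gives q of 0.988 for HT-29 and 1 for CaCo-2.

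**Figure D3:**
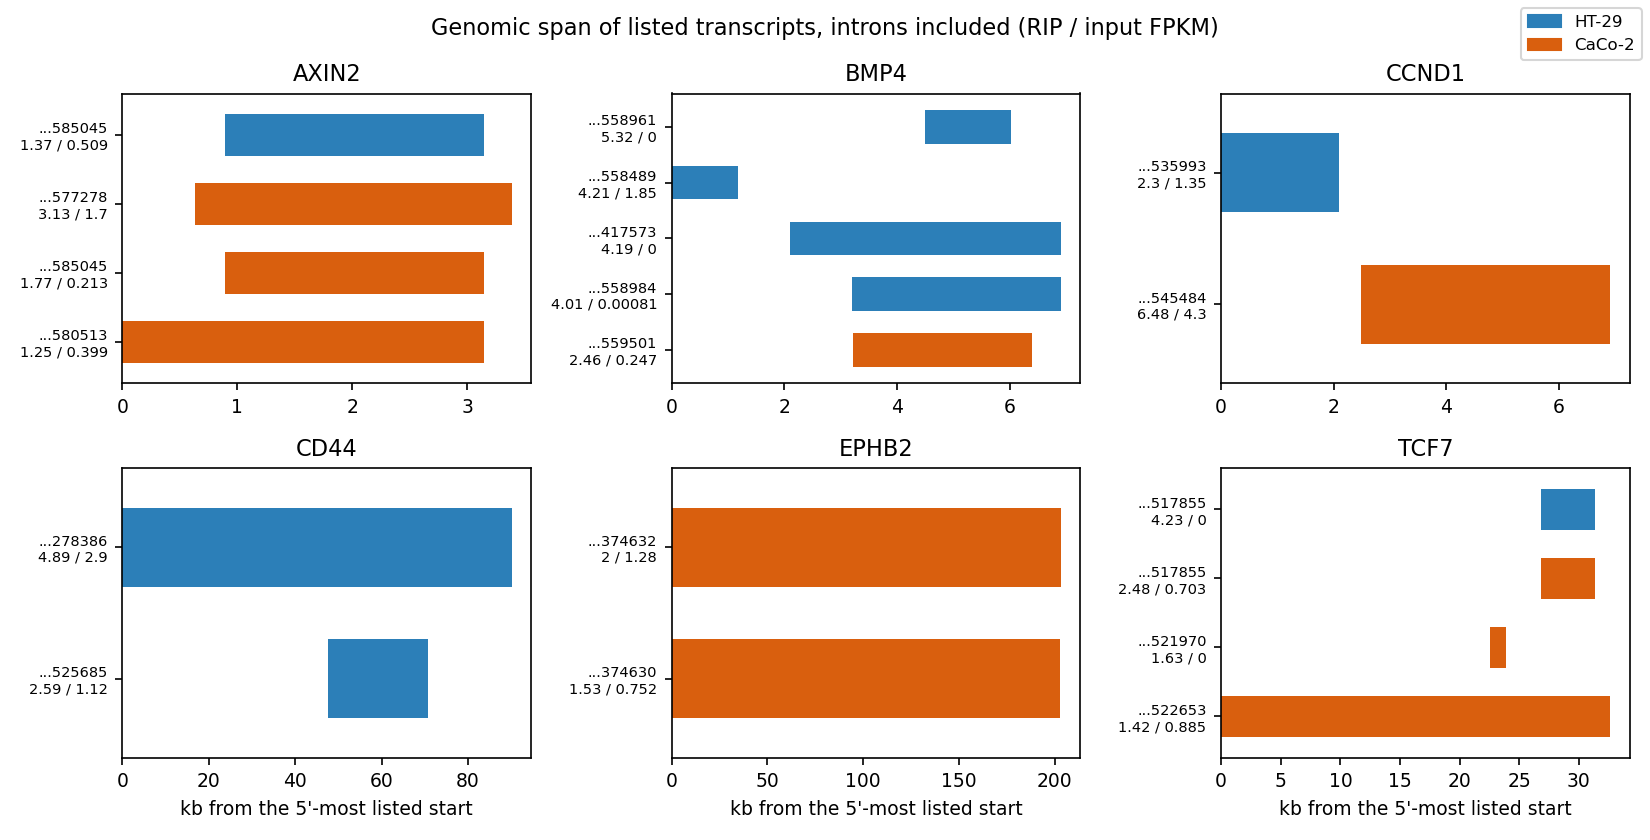
Genomic span of each listed transcript, introns included, of 6 genes in HT-29 (blue) and CaCo-2 (orange), in kb from the most 5′ listed start in the direction of transcription; each panel has its own scale, and labels give RIP and input FPKM. EPHB2 and the longer CD44 entry reach across their panels, CCND1 was listed by separate stretches in the 2 lines, and 1 BMP4 entry lies upstream of the others.

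Transcript classes, which the choice of genes did not use, were alike in number in the 2 lines. Protein-coding transcripts made up 8 of the 12 entries in each line, where they were 49.6% of the HT-29 table and 43.0% of the CaCo-2 table. Of these 8, 4 reached 2-fold in each line, against 53.2% and 42% of all protein-coding entries. HT-29 had 2 retained-intron transcripts (CCND1 and TDGF1) and CaCo-2 had 3 (CCND1 and a pair from TCF7). In each line 1 of them reached 2-fold, against 52% and 32%, and both of these had input listed at 0. Processed transcripts were RNF43 and BMP4 in HT-29, 0 of 2 at 2-fold against 63.3%, and RNF43 in CaCo-2, 1 of 1 against 45.1%.

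Sharing between the lines was counted by gene and by transcript. Of the 10 genes, 5 were listed in both lines: AXIN2, BMP4, CCND1, RNF43 and TCF7. The same transcript was listed in both for 3 of them, which is 25.0% of the 12 entries of either line. Over the whole tables, 1928 transcripts were common, 19.5% of HT-29 and 16.1% of CaCo-2. By gene, 3843 were common, of 6489 listed for HT-29 and 7452 for CaCo-2. Beside these, the 5 shared Wnt target genes were of 8 listed for HT-29 and 7 for CaCo-2. For AXIN2 and RNF43 the log2 ratio was the higher in CaCo-2, and for TCF7 in HT-29, where its input was 0. These differences between lines were not tested.

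**Figure D4:**
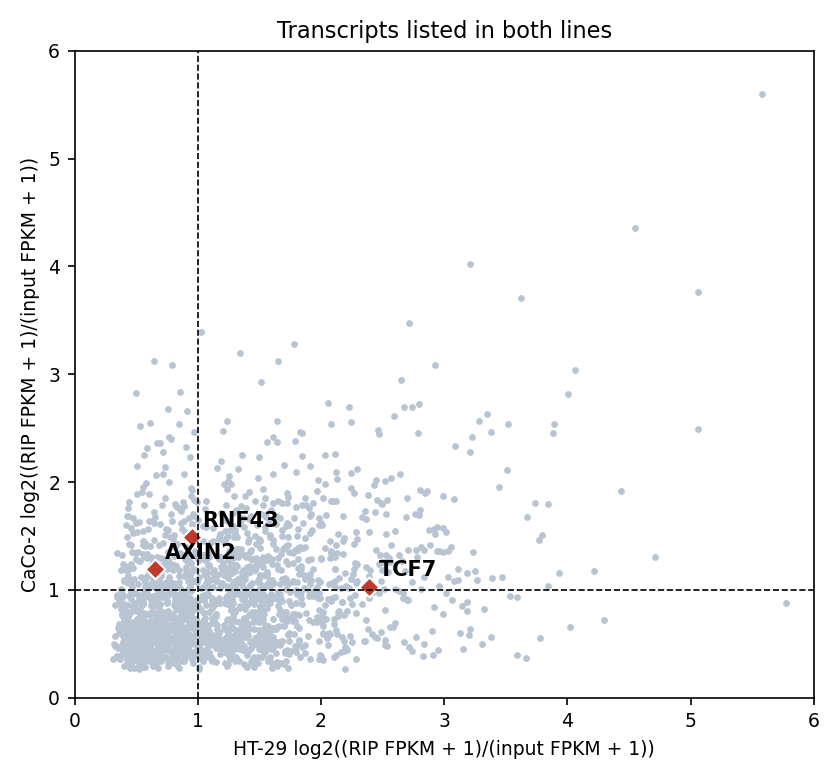
Each point is a transcript listed in both lines, with its log2((RIP FPKM + 1)/(input FPKM + 1)) in HT-29 (horizontal axis) and CaCo-2 (vertical axis); dashed lines mark 2-fold, and 24 of 1928 points lie outside the axes. The red diamonds are AXIN2, RNF43 and TCF7, of which TCF7 alone lies past 2-fold in both lines.

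Other genes of the pathway were counted in the same way. Of 38 further Wnt targets, HT-29 had 10 listed, with 5 of 15 transcripts at 2-fold and a median log2 ratio of 0.91. CaCo-2 had 7 listed by 13 transcripts. Of these, 9 passed the filter, with 4 at 2-fold and a median of 0.88. Over all listed transcripts, 56% (HT-29) and 40.8% (CaCo-2) were at 2-fold, with medians of 1.14 and 0.82. With at least 1 FPKM in both libraries, HT-29 had 0 of 7 at 2-fold, beside 25.2% of the table, and CaCo-2 had no transcript left. The highest by RIP level in HT-29 was a processed transcript of MET, a growth factor receptor, with 5.78 FPKM in the RIP and 2.40 in the input. It was followed by ID2, an inhibitor of DNA binding, whose retained-intron transcript had 4.83 in the RIP with the input listed at 0, and by PLAUR, the urokinase receptor, with 3.79 in the RIP and 2.24 in the input. In CaCo-2 the highest 3 were transcripts of NRCAM, a cell adhesion molecule, with RIP levels of 3.44, 2.30 and 2.23 FPKM and inputs of 0, 0.982 and 0.

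Of 43 components of the pathway, HT-29 had 14 listed, with 18 of 25 transcripts at 2-fold and a median log2 ratio of 1.33. CaCo-2 had 21 listed by 51 transcripts, with 19 of the 42 that passed the filter at 2-fold and a median of 0.79. Of all listed transcripts 56% and 40.8% were at 2-fold, with medians of 1.14 and 0.82. Where both libraries held at least 1 FPKM, 3 of 6 component transcripts were at 2-fold in HT-29, beside 25.2% of the table, and 0 of 9 for CaCo-2, beside 13.1%. CSNK1A1, the kinase that primes beta-catenin for degradation, had the highest entry in both lines. In HT-29 its transcript ENST00000515748 had 14.0 FPKM in the RIP and 2.76 in the input, and ENST00000504676 had 8.26 and 0.820. Between them in HT-29 came a transcript of CTNNB1, which encodes beta-catenin itself, with 11.8 in the RIP and 7.69 in the input, a log2 ratio of 0.56. In CaCo-2, ENST00000504676 had 7.34 in the RIP and 4.80 in the input. The Groucho co-repressors followed in CaCo-2, with 3.83 FPKM of TLE3 in the RIP against 0.156, and 3.59 of TLE2 against 2.26. The q of these named entries ran from 0.0656 (TLE3) to 0.931 (CSNK1A1 in CaCo-2) in the authors' deposited table. In the authors' deposited table, q was at or below 0.05 for 2 of 51 CaCo-2 transcripts of the list, beside 2.24% of all listed. These were from BTRC and DVL2, which were named after their values were seen. For HT-29 the authors' deposited table gives such a q for 0 of 25, beside 3.08%.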

How the data were processed

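Per the submitters' processing notes, reads were handled with CASAVA 1.4, Bowtie2, TopHat2 2.0.8, Cufflinks and Cuffdiff on hg19. FPKM values are as deposited by the authors, in 1 table per line with 1 row per Ensembl transcript. Each p-value and q-value was deposited by the authors, from Cuffdiff on 1 library per side. The number of per-sample columns left unmapped was 0. Starts were counted from 0 in the tables and are given here from 1. FPKM of overlapping transcripts are estimates that divide shared fragments. Sequencing depth and exon lengths are unknown from these tables, so no counting interval is given.

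Ratios took a pseudocount of 1 FPKM, which understates those of low transcripts. Transcripts needed at least 1 FPKM in 1 library of the line. Scripts used Python 3.11.15, pandas 2.3.3 and NumPy 2.4.6 and were tested on simulated data. The genes and lists were chosen with earlier results of these data known. All entries of the 10 genes are named, and up to 3 per line of the other lists, by highest RIP level. RP1-68D18.4, CD68 and other listed genes of shared loci were named after their values were seen. Alternatives were the pseudocount, the filter, 1 or summed transcripts per gene, and coding transcripts alone.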

Additional observations from a re-analysis of the deposited data

How the results depend on the processing

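All ratios stayed above 0, which the selection of listed transcripts fixes. The count at 2-fold in HT-29, 5 of 12, became 9 of 12 with a pseudocount of 0.1 FPKM, 0 of 6 where both libraries held at least 1 FPKM, 3 of 8 with 1 transcript per gene (55.6% of the table) and 3 of 8 with transcripts summed per gene (62.8%). Without the BMP4 transcripts, an alternative added after seeing the data, it was 2 of 8. Without a pseudocount, without the filter and over coding transcripts alone it was 5 of 8, 5 of 12 and 4 of 8. In CaCo-2 the count of 6 of 12 became 1 of 4 where both libraries held at least 1 FPKM. It was 7 of 12 with a pseudocount of 0.1 FPKM and 6 of 10 without one. With 1 transcript per gene it was 4 of 7 (41% of the table) and with sums 5 of 7 (50.2%). Without the filter it was 6 of 12, over coding transcripts alone 4 of 8, and without BMP4 5 of 11. The median log2 ratio of HT-29, 0.91, became 1.21 with a pseudocount of 0.1, 1.12 without one, 0.72 with at least 1 FPKM in both libraries, 0.81 with 1 transcript per gene, 0.85 with sums, 1.54 for coding transcripts and 0.72 without BMP4. That of CaCo-2, 0.86, became 1.56, 1.33, 0.56, 1.03 and 1.11 under the first 5 of these, and 0.68 without BMP4. With a pseudocount of 0.1, all 12 ratios of each line were higher, and the shares of the whole tables at 2-fold were 74.8% and 67.2%. No paired analysis was possible because the tables list only transcripts higher in the RIP, so a test of RIP against input with the line as the pair would have its direction fixed by the selection. With 1 library per group, none could be left out.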

Other observations

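The test statistic in the authors' deposited table was below 0 for all Wnt target entries with input above 0 (8 for HT-29, 10 for CaCo-2), although their deposited fold was above 1. The same held for all 6743 and 8477 such transcripts of the whole tables.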
